A study of Mus musculus with 16 samples.

Results

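The RNA of 1 exon 5 knockout (KO) clone, KO clone 2, was compared with that of the wild-type (WT) line from which it was made. Both lines are Hepa1-6, a mouse hepatoma line of the C57L strain that keeps part of the hepatocyte programme. KO clone 2 carries an in-frame deletion of exon 5 of Eef1d, made with CRISPR/Cas9 and a pair of guides (S1 and S4) that flank the exon, and it was grown from 1 cell by limiting dilution, so the deletion and the clone cannot be told apart in this comparison. WT cells carry no deletion, and neither line was treated. The comparison used 2 RNA-seq libraries of KO clone 2 and 2 of WT, 4 of the 16 libraries of the series. The others are RNA-seq of KO clones 1 and 3 (clone 1 made with the same guides, clone 3 with S2 and S4) and ribosome profiling of all 4 lines from the same lysates. The study's methods call the replicates behind the footprint plots biological, and the RNA came from the same lysates, but neither they nor the labels say whether the 2 samples of a line were separate cultures. The p-values measure the spread between these libraries.

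EEF1D is the delta subunit of the EEF1B complex, which exchanges GDP for GTP on EEF1A after EEF1A has brought an aminoacyl-tRNA to the ribosome. EEF1B2 and EEF1D carry the exchange activity, EEF1G holds the complex together, and VARS, the valyl-tRNA synthetase, binds it. Kinectin (KTN1), a scaffold in the membrane of the endoplasmic reticulum (ER), is a known partner of EEF1D, and RRBP1 is a ribosome-binding protein of the same membrane. Deletion of exon 5 leaves the exchange domain, which lies at the end of the protein, in frame.

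Exon 5 lies on chromosome 15 (GRCm38 chr15:75900691-75900762, minus strand), is 72 bases long and encodes 24 codons. It is printed here because it is the exon that the deletion removes. The guides cut in the introns on either side, so the deletion also takes intron sequence. Capitals mark the exon, lower case the 20 intron bases on each side.
Eef1d exon 5: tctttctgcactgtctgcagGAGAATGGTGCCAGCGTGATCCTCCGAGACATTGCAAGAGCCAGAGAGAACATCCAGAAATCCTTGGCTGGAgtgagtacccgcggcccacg

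The table of counts lists an Eef1d transcript with exon 5 (ENSMUST00000154584.8) and one without it (ENSMUST00000109972.8) that shares all its other coding exons, so reads from those exons fit both. In WT the transcript with the exon had 2386 and 2582 counts and the one without had 2057 and 2222, so that the first stood at 116.0% and 116.2% of the second. In KO clone 2 the transcript with the exon had 1953 and 2237 counts and the other had 2175 and 2467, which gives 89.8% and 90.7%. The ratio was thus lower in both KO libraries than in both WT libraries. Clones 1 and 3 gave 90.7% to 92.6%. As reads are shared, the ratio checks the labels and does not measure how much exon 5 remains.

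The value for Eef1d depended on the transcript read. The transcript that stands for the gene (ENSMUST00000137426.7, the one with the largest sum over all 16 libraries) did not pass the test. It stood at 189 and 192 CPM (read counts scaled to library size, with TMM factors) in WT and at 206 and 202 CPM in KO clone 2 (log2 fold change 0.099, SE 0.059, adjusted p = 0.266). With the transcript that has the largest sum over these 4 libraries instead, the value was -0.28 (adjusted p = 0.00111 by the same test). Whether that transcript holds the deleted exon was not tested. A transcript with that exon loses the reads of the exon by design, so the value is not read as a lower level of the gene. Of the 10 genes listed for the complex, the elongation factors and the ER anchors, 8 were tested, and 1 passed the test. Eef2, which moves the ribosome along the mRNA, fell from 5219.7 and 5258 CPM to 3782 and 4289 CPM (log2 fold change -0.37, SE 0.044, adjusted p = 1.32e-06). Both KO libraries lay below both WT libraries, and Eef2 is on chromosome 10, whose genes were mostly lower. Log2 fold changes of the exchange factor Eef1b2 (0.10), the scaffold Eef1g (-0.03), the synthetase Vars (0.13), Eef1a1 (-0.072) and the anchors Ktn1 (-0.20) and Rrbp1 (-0.016) did not pass. Eef1a2 was too low to test and Vamp7 was not analysed here.

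Hepatocyte markers were present, and most of those tested had changed. Of 13 hepatocyte markers, 9 were high enough to test, of which Apob was called higher and Alb, Afp, Trf, Cebpa and Fgb were called lower (over all genes 11.6% were called higher and 8.84% lower). The regulators Hnf4a and Foxa2 were present and did not pass the test. The adult plasma carriers Ttr, Apoa1, Apoh and Serpina1a had at most 14 counts in any of the 4 libraries. Markers of other liver cells were measured as well. Of 10 leukocyte markers 3 were tested and none passed. Of 10 endothelial markers 2 were tested, and Pecam1, an adhesion receptor of endothelium, was lower (-1.49). The other lay above 0 and was not called. The 10 endothelial markers were low, at 4.27 and 4.77 CPM summed in WT and an overlapping 3.55 and 4.96 CPM in KO clone 2. Of 10 markers of stellate cells and fibroblasts 4 were tested and 3 were lower (Des at -1.57 from a low level, Pdgfra at -0.67 and Dcn at -0.26). This group summed to 957 and 905 CPM in WT and to 835 and 715 CPM in KO clone 2, nearly all of it Dcn, a matrix proteoglycan on chromosome 10. Of 10 cholangiocyte markers 6 were tested, with Krt7 (1.42) and Spp1 (0.32) higher and Tff2 (-4.01) lower. They summed to 522 and 502 CPM in WT and to 648 and 661 CPM in KO clone 2. Both lines are cultures of Hepa1-6 cells, and KO clone 2 was grown from 1 cell. These markers are therefore not read as counts of other liver cells. In bulk samples fewer cells that express a gene and less RNA per cell cannot be told apart.

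KO clone 2 differed from WT in many genes, most of them by a small amount. Of 22392 genes in the table, 11476 had enough counts to test, and 2346 (20.4%) passed edgeR's quasi-likelihood test at a Benjamini-Hochberg adjusted p under 0.05. Of these, 1331 genes (11.6% of those tested) were higher in KO clone 2 and 1015 (8.84%) were lower. Another tool, DESeq2, called 732 higher and 499 lower. The count was 1390 without WT replicate 1 and 1480 without WT replicate 2. The median size of the change among called genes was 0.40 on the log2 scale, and 337 called genes, 174 higher and 163 lower, reached a log2 fold change of 1. The 4 libraries held 10563417 to 12325249 counts when each gene was represented by 1 transcript.

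**Figure D1:**
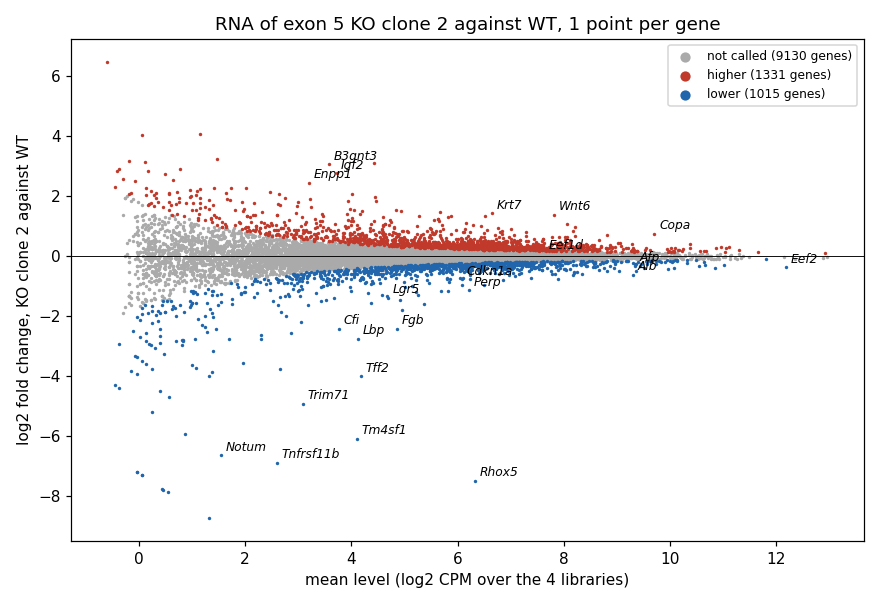
Each point is 1 of 11476 genes, with the mean level over the 4 libraries (log2 CPM) on the horizontal axis and the log2 fold change of KO clone 2 against WT on the vertical axis. Red points are the 1331 genes called higher and blue points the 1015 called lower; most lie close to 0, and Rhox5 lies at -7.48.

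The calls were not spread evenly over the genome. Genes of chromosomes 1 and 8 were mostly higher in KO clone 2, and genes of chromosomes 10, 12 and 18 were mostly lower. Chromosome 1 had a median log2 fold change of 0.28, with 316 of its 683 tested genes called higher and 16 lower. On chromosome 8 the median was 0.26, with 282 of 623 genes higher and 12 lower. Chromosome 10 showed the opposite, with a median of -0.26 and 226 of 557 genes lower against 17 higher. Chromosomes 12 (median -0.21, 86 of 376 genes lower) and 18 (median -0.12, 69 of 305 lower) followed it. The medians of the other 14 autosomes and the X chromosome lay between -0.053 and 0.081. These 5 chromosomes were picked out after their values were seen.

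The shift was not confined to 1 region of these chromosomes. In windows of 10 Mb with at least 20 tested genes, the 13 window medians of chromosome 1 ran from 0.20 to 0.33 and the 12 of chromosome 8 from 0.21 to 0.36. The 11 of chromosome 10 ran from -0.42 to -0.21, the 8 of chromosome 12 from -0.28 to -0.084 and the 6 of chromosome 18 from -0.16 to -0.014. Window medians of 1 sign were also seen on chromosomes 6, 9, 14, 15 and 17, with values between -0.086 and 0.16. Windows with fewer tested genes were not read. The shift was also present in each library. Relative to the mean of the WT libraries, the median log2 level of chromosome 1 was 0.29 and 0.25 in the KO libraries, against -0.0025 and 0.0025 in WT. For chromosome 10 the values were -0.25 and -0.26, against 0.0042 and -0.0042. The median fold was 1.21 for chromosome 1, 1.20 for chromosome 8 and 0.836 for chromosome 10. Chromosome copy number was not measured here, and its part in these shifts was not tested.

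These 5 chromosomes held 22.2% of the genes tested. Chromosomes 1 and 8 held 11.4% of tested genes and 44.9% of those called higher (598 genes), and chromosomes 10, 12 and 18 held 10.8% of tested genes and 37.5% of those called lower (381 genes). On all other chromosomes and among genes with no position, 1304 of 8932 genes (14.6%) were called, 698 higher and 606 lower. Large changes leaned less on these chromosomes, with 96 of the 337 called genes that reached a log2 fold change of 1 (28.5%) placed on them. For that reason the number of called members on these chromosomes is given beside most gene groups.

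**Figure D2:**
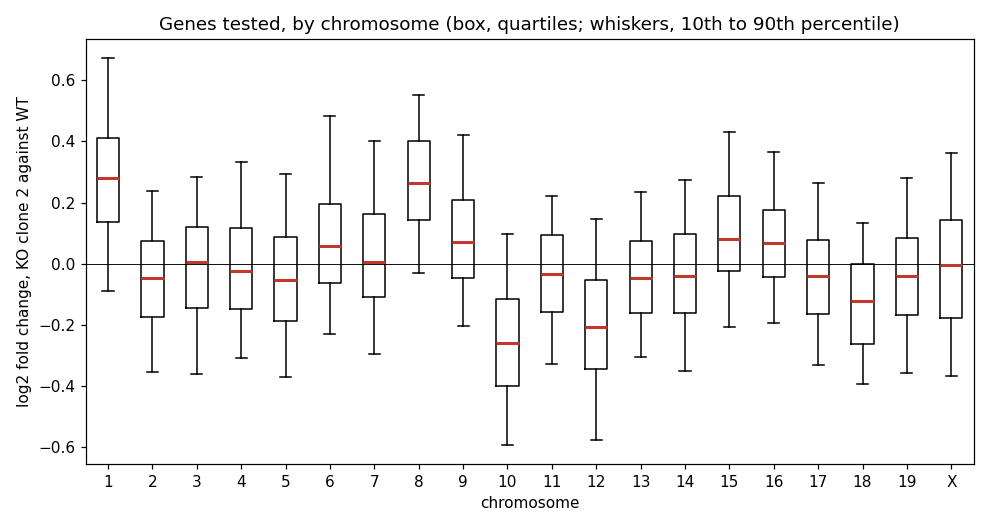
Log2 fold change of KO clone 2 against WT (vertical axis) for the tested genes of each chromosome (horizontal axis); boxes span the quartiles, the red line is the median and whiskers reach the 10th and 90th percentiles. Chromosomes 1 and 8 sit above 0 and chromosomes 10, 12 and 18 below it.

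The largest falls were of genes that KO clone 2 had almost switched off. Rhox5, a homeobox gene of the X-linked reproductive cluster, fell from 149 and 166 CPM in WT to 1.12 and 0.650 CPM in KO clone 2 (log2 fold change -7.48, SE 0.16, adjusted p = 2.19e-20). Tm4sf1, a tetraspanin-like protein of the cell surface, fell from 35.8 and 31 CPM to 0.468 and 0.488 CPM (log2 fold change -6.09, SE 0.25, adjusted p = 2.31e-14). In both genes the 2 WT libraries stood far above the 2 KO libraries. Tnfrsf11b, the decoy receptor osteoprotegerin, had 134 and 130 counts in WT and 2 and 0 in KO clone 2, so that it was 134-fold higher in WT (exact 95% counting interval 36.7 to 1112). Notum, a secreted enzyme that inactivates Wnt ligands, had 60 and 63 counts against 0 and 1, which made it 125-fold higher in WT (22.0 to 4971). The intervals cover counting error only. Both genes passed the test (adjusted p = 2.16e-10 and 5.9e-08).

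The other large falls were of genes with varied roles. Trim71, an RNA-binding ubiquitin ligase of embryonic cells, fell from 15.6 and 16.7 CPM to 0.281 and 0.732 CPM (-4.92), and Tff2, a trefoil peptide of mucous epithelia, from 35.7 and 31.9 CPM to 2.25 and 1.95 CPM (-4.01). Lbp, which carries bacterial lipopolysaccharide in plasma, fell from 32.8 and 27.4 CPM to 3.74 and 5.04 CPM (log2 fold change -2.76, SE 0.17). The WT and KO libraries of these 3 genes did not overlap, which the choice of genes required and which held in 57.8% of all genes tested. All 3 are off the shifted chromosomes. The glutathione transferase Gstm7 (-3.75), the RhoGAP Arhgap20 (-2.75), the teneurin Tenm4 (-2.75), the O-glycosylating enzyme Galnt18 (-2.63) and, on chromosome 10, the nuclear receptor coactivator Ncoa7 (-3.55) completed the 12 largest falls on the log2 scale among genes with at least 50 counts in both WT libraries. Gstm7 has close relatives whose reads it may share. Among called genes, 8 that were low in WT had 0 counts in both KO libraries, led by Pof1b (44 and 61 counts in WT, at least 35.5-fold lower in KO clone 2 against a floor of 3 counts over the group).

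The largest rises were smaller than the largest falls and began from low levels. B3gnt3, a glycosyltransferase of chromosome 8 that extends mucin-type glycans, rose from 2.82 and 2.21 CPM to 21.1 and 20.7 CPM (log2 fold change 3.06, SE 0.20, adjusted p = 1.01e-10). Igf2, the fetal insulin-like growth factor, rose from 3.82 and 2.81 CPM to 21 and 23.7 CPM (log2 fold change 2.76, SE 0.19, adjusted p = 2.96e-10). Its rise cannot be separated from that of Gm49394, which ranked first of all rises (3.55 and 5.11 CPM to 32.6 and 42.2 CPM), because the annotation places both on the minus strand of the same stretch of chromosome 7 (GRCm38 chr7:142650769-142669942 for Gm49394). Enpp1, a pyrophosphatase of the cell surface that also damps insulin receptor signalling, rose from 3.09 and 2.47 CPM to 14.9 and 15.3 CPM even though it lies on chromosome 10.

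Next to Gm49394, a predicted gene, 12 rises are named, the largest among genes with at least 50 counts in both KO libraries. The lymphotoxin subunit Ltb rose from 5.55 and 6.64 CPM to 24.3 and 26.7 CPM, and Cyfip2, a subunit of the WAVE actin regulator, from 7.91 and 9.70 CPM to 34.6 and 33.7 CPM. In both, the lowest KO library was over 2-fold above the highest WT library. The leukocyte surface sialophorin Spn (2.27), the paxillin relative Lpxn (2.13), the addressin Madcam1 (1.93, chromosome 10), the growth regulator Slfn2 (2.06), the lipid hydrolase Adtrp (2.25), the teneurin Tenm3 (2.10, chromosome 8) and the axon guidance protein Dpysl3 (1.92, chromosome 18) rose by similar amounts on the log2 scale. All 12 named rises were from WT levels under 10 CPM.

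**Figure D3:**
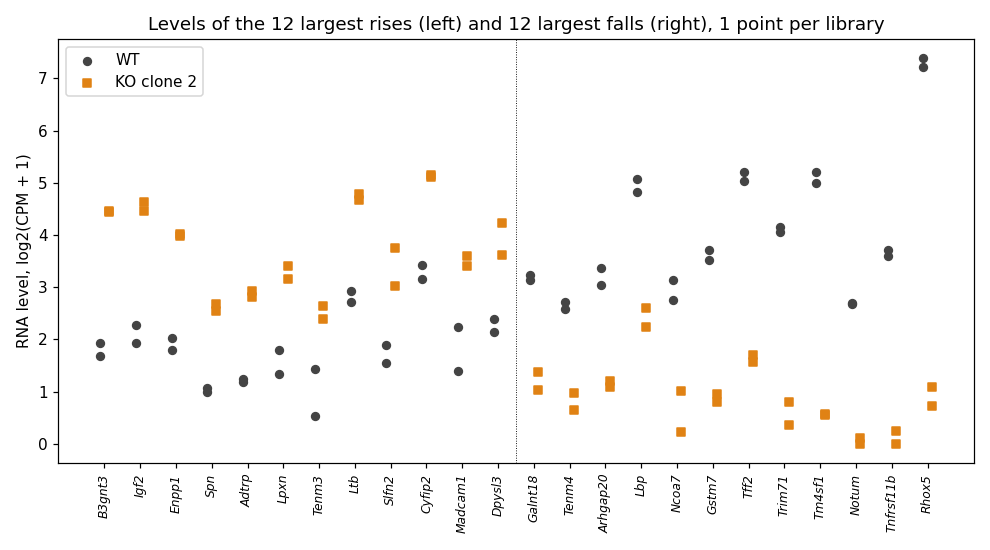
RNA level as log2(CPM + 1) (vertical axis) of the 12 rises and the 12 falls named by size (horizontal axis), with 1 point for each of the 2 WT libraries (circles) and the 2 libraries of KO clone 2 (squares). Only genes whose 2 groups did not overlap were chosen, so the points are apart in every gene by selection. Rhox5 shows the longest distance.

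By size of p, the clearest rises were of genes with high counts. Wnt6, a Wnt ligand, rose from 124 and 126 CPM to 314 and 328 CPM (log2 fold change 1.37, SE 0.06, adjusted p = 7.63e-14), and Krt7, a keratin of duct epithelium, from 57 and 51.7 CPM to 149.7 and 141 CPM (log2 fold change 1.42, SE 0.078, adjusted p = 5.58e-12). Mkrn1, a ubiquitin ligase, rose from 163 and 181 CPM to 355 and 362 CPM. Wnt6 lies on chromosome 1, and its log2 fold change of 1.37 was well above that chromosome's median of 0.28. Among called genes, by the difference of mean CPM, the largest rises were of Actb, Rpl7, Copa and Hist2h3c1, and the largest falls of Eef2, Rps26, Atp5b and Rps12. The rise of Actb was small for its level (log2 fold change 0.096, SE 0.034, adjusted p = 0.047 by edgeR's test), and DESeq2 did not call it. Copa, the alpha subunit of the coat of Golgi-to-ER vesicles, rose from 628 and 610.2 CPM to 1032 and 1042 CPM (log2 fold change 0.75, SE 0.047, adjusted p = 5.59e-11), again above the median of chromosome 1. Rps26, Atp5b and Rps12 are, like Eef2, on chromosome 10.

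More of the listed p53 targets were lower than higher. The transcription factor p53 answers DNA damage by switching on genes that stop the cell cycle, repair DNA or start cell death. All 28 genes on the list were tested, and 16 were lower in KO clone 2 while 0 were higher (57.1% lower, against 8.84% of all genes). The median log2 fold change of the list was -0.27, against 0.00017 for all genes tested, and -0.28 after the median of each member's chromosome was subtracted. Only 3 of the 16, Perp, Mdm2 and Pmaip1, lie on chromosomes 10, 12 or 18. DESeq2 called 9 members lower at the same threshold, and edgeR called 10 at an adjusted p under 0.01 and 10 without WT replicate 1. With genes of the 5 shifted chromosomes left out, 11 of 22 members were lower. This list, like the others, was chosen with earlier results of these data known. Its shares and median therefore describe the listed genes and are not a test of the pathway.

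Among the arrest genes, Cdkn1a, the p21 inhibitor of cyclin-dependent kinases, fell from 84.6 and 85 CPM to 46 and 53.2 CPM (log2 fold change -0.77, SE 0.087, adjusted p = 7.41e-07). Btg2, an antiproliferative adaptor, fell from 22.6 and 23.4 CPM to 13.7 and 13.2 CPM although it lies on chromosome 1, and the stress kinase Plk3 from 25.6 and 28.3 CPM to 15.1 and 14.2 CPM. The feedback genes moved the same way. Mdm2, the ubiquitin ligase that degrades p53, fell from 304 and 288 CPM to 175 and 176 CPM (log2 fold change -0.75, SE 0.058, adjusted p = 1.92e-09), and Ccng1, cyclin G1, from 349 and 339 CPM to 247 and 222 CPM (log2 fold change -0.55, SE 0.06, adjusted p = 3.92e-07). Among the death genes Perp, a membrane protein of desmosomes and apoptosis, fell from 96.6 and 106 CPM to 45.2 and 46.8 CPM (log2 fold change -1.14, SE 0.084, adjusted p = 9.3e-10), and the death receptor Fas from 10.1 and 8.25 CPM to 4.40 and 5.28 CPM. In each of these 7 genes, all of them called lower, both KO libraries were below both WT libraries. Over all genes tested the 2 groups did not overlap, in either direction, in 57.8%.

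Trp53 itself, which encodes p53, stood at 305 and 296 CPM in WT and 302 and 289 CPM in KO clone 2 and did not pass (log2 fold change -0.022, SE 0.056, adjusted p = 0.84). The death genes Bax (-0.16) and Bbc3 (-0.089) and the repair genes Ddb2 (0.047) and Xpc (0.011) did not pass either. Other called members were Pidd1 (-0.71), Trp53inp1 (-0.64), Eda2r (-0.57), Pmaip1 (-0.40), Polk (-0.36), Ei24 (-0.35), Tnfrsf10b (-0.28), Zmat3 (-0.25) and Gtse1 (-0.20), in log2 fold change. Gtse1 is itself a negative regulator of p53 and a mitotic gene.

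A stretch of the Cdkn1a promoter is printed to show the kind of element through which p53 acts. The motif searched was 1 strict form of the core of the p53 response element, a pair of mirrored half-sites with no gap. This form begins and ends with CATG and reads the same on both strands. RefSeq promoter windows (build GRCm38.p6, 250 bases before to 50 after a start) were found for 27025 genes, of which 11 (0.0407%) held it. Of the 16 lower members 11 had a window and 1, Cdkn1a, held the motif, 48 to 35 bases before the start of one of its transcripts. Of the 12 members that were not called, 9 had a window and 0 held it. Other forms of the element and sites outside the windows were not searched, so these counts do not show which members have a p53 site. Capitals mark the motif.
Cdkn1a (chr17:29090911-29090964, plus strand): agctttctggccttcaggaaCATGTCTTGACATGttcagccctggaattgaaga

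Among plasma proteins, which hepatocytes secrete into blood, more genes were lower than higher. Of 78 listed genes 77 were in the table and 29 were high enough to test, with 15 lower and 2 higher (6.90% higher and 51.7% lower, against 11.6% and 8.84% of all genes). The median was -0.27 (-0.34 after subtraction of chromosome medians), and 1 of the 15, Proc, lies on chromosomes 10, 12 or 18. The members that reached the filter include those high in either group, so their share says nothing about the 48 that did not.

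The largest falls in the group were of Fgb and Cfi among the members named here. Fgb, the beta chain of fibrinogen, fell from 50.7 and 45.7 CPM to 9.45 and 8.46 CPM (log2 fold change -2.43, SE 0.13, adjusted p = 3.54e-12). Cfi, the protease that inactivates complement C3b, fell from 22.6 and 22.7 CPM to 3.46 and 4.88 CPM (log2 fold change -2.42, SE 0.18, adjusted p = 1.08e-09). In both genes the KO libraries lay far below the WT libraries. Proc, the anticoagulant protein C, fell from 11.9 and 8.0 CPM to 4.21 and 3.66 CPM, and Cp, the copper carrier ceruloplasmin, from 15.5 and 14.6 CPM to 7.95 and 7.32 CPM. Serpind1, a thrombin inhibitor, fell from low counts (24 and 17 in WT, 4 and 5 in KO clone 2).

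The abundant carriers fell by less. Albumin (Alb) fell from 784 and 742 CPM to 522 and 469 CPM (log2 fold change -0.62, SE 0.055, adjusted p = 1.47e-08), and Afp, its fetal counterpart, from 747 and 693 CPM to 598 and 548 CPM (log2 fold change -0.33, SE 0.054, adjusted p = 0.000106). The haem carrier Hpx (-0.88), the iron carrier Trf (-0.28) and the retinol carrier Rbp4 (-0.18) were also lower. The 2 that rose were both complement components, C3 (0.38) and C1s1 (0.42).

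Among apolipoproteins and lipoprotein assembly genes 4 of 15 tested were higher and 1 lower (26.7% and 6.67%, against 11.6% and 8.84% of all genes). Apoc2, the cofactor of lipoprotein lipase, rose from 30.7 and 27.7 CPM to 73.7 and 63.1 CPM (log2 fold change 1.23, SE 0.10, adjusted p = 6.16e-09), and Apob, the core protein of very low density lipoprotein, from 89.4 and 92.2 CPM to 147 and 129 CPM although it lies on chromosome 12. Mttp, which loads lipid onto APOB, rose by 0.51 and Apoc4 by 0.46 on the log2 scale. Lrp1, a receptor on chromosome 10 that clears remnants, was the member that fell (-0.40).

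Of the liver transcription factors 25 were tested, 3 were higher and 5 lower (12% and 20%, against 11.6% and 8.84% of all genes). Cebpd, an acute-phase regulator, fell from 9.28 and 9.45 CPM to 3.18 and 4.15 CPM (log2 fold change -1.34, SE 0.23, adjusted p = 0.000147), and Cebpa, which drives hepatocyte maturation, from 31.8 and 31.6 CPM to 21.9 and 26.9 CPM (log2 fold change -0.37, SE 0.12, adjusted p = 0.0289). The pioneer factor Foxa1, on chromosome 12, fell by 0.76 on the log2 scale and Nr5a2, a regulator of bile acid synthesis on chromosome 1, rose by 0.59. Hnf4a, at 109 and 104 CPM in WT and 92.8 and 98 CPM in KO clone 2, did not pass. Of 18 hepatocyte metabolism genes tested 3 (16.7%) were lower and 0 were higher. Among the 3 were the urea cycle enzyme Ass1 (-0.60) and, from low counts, the phospholipid transporter Abcb4.

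Among metabolic pathways, sterol synthesis had 4 of 26 genes higher, a share of 15.4% against 11.6% of all genes, and 0 lower. They were Mvd (0.55), Msmo1 (0.48), Fdps (0.28) and the regulator Srebf2 (0.22). Mvd and Msmo1 lie on chromosome 8. Of the 19 fatty acid synthesis genes tested, 0 passed edgeR's test, with log2 fold changes from -0.30 (Lpin1) to 0.44 (Acacb). In glycolysis 3 of 20 were higher and 7 lower, 2 of the 7 on chromosome 10. These shares were 15% and 35%, against 11.6% and 8.84% of all genes. Muscle enolase Eno3 rose from 88.7 and 74.6 CPM to 153 and 139 CPM, neuronal enolase Eno2 by 0.97 and hexokinase Hk2 by 0.52, while the major enolase Eno1 fell by 0.21. Pfkl, the liver phosphofructokinase, fell from 235 and 213 CPM to 157 and 164 CPM and lies on chromosome 10. In fatty acid oxidation 2 of 23 genes were higher and 3 lower (8.70% and 13.0%, against 11.6% and 8.84% of all genes). The list median was 0.011. Among the 3 were the thioesterases Acot1 (-0.99) and Acot2 (-0.86), close copies on chromosome 12 whose reads may be shared.

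Most calls in the respiratory chain were on the shifted chromosomes. Of 75 subunits tested 6 were higher and 8 lower (8% and 10.7%, against 11.6% and 8.84% of all genes). The 6 higher subunits, among them Sdhc (0.41) and Ndufa10 (0.24), were all on chromosomes 1 or 8. Of the 8 lower subunits 6 were on chromosomes 10 or 18, with Atp5d (-0.47) and Uqcr11 (-0.39) changed most. Cytosolic ribosomal proteins were alike, with 6 of 79 higher and 14 lower (7.59% and 17.7%). All 6 were on chromosomes 1 or 8, and 7 of the 14 were on chromosomes 10, 12 or 18. Rpl41 (-0.43), Rps15 (-0.41) and Rps26 (-0.39), all on chromosome 10, fell most. Rpl7, on chromosome 1, rose from 1983 and 1977 CPM to 2495 and 2345 CPM. Ribosomal protein genes have many processed copies, so their counts may include reads from those.

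Of the 24 cytosolic aminoacyl-tRNA synthetase genes, which charge the tRNAs that EEF1A carries, 9 were higher and 0 lower (37.5% higher, against 11.6% of all genes). Alanyl-tRNA synthetase Aars rose from 226 and 225 CPM to 296 and 285 CPM (log2 fold change 0.37, SE 0.057, adjusted p = 4.54e-05) and Eprs, the glutamyl-prolyl enzyme, from 469 and 480.4 CPM to 605 and 591 CPM (log2 fold change 0.34, SE 0.05, adjusted p = 3.02e-05). Of the 9, 5 (Aars, Kars, Dars, Eprs and Farsb) lie on chromosomes 1 or 8, and the others are Iars (0.31), Tars (0.28), Sars (0.20) and Gars (0.16). The list's median of 0.12 became 0.063 after subtraction of chromosome medians.

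In the group of genes that target and glycosylate proteins at the ER, 6 of 36 were higher and 4 lower (16.7% higher and 11.1% lower), shares near the 11.6% and 8.84% of all genes. Srpr, the receptor that docks ribosomes at the ER, rose from 106 and 98.6 CPM to 151 and 154 CPM (log2 fold change 0.58, SE 0.068, adjusted p = 1.13e-06). In the signal recognition particle, Srp9 rose (0.47, chromosome 1) and Srp54a fell (-0.43, chromosome 12). Of 27 ER chaperones and unfolded protein response genes 4 were higher and 3 lower (14.8% and 11.1%), again near the shares of all genes. The sensor Eif2ak3 (0.36) was among the 4. The sensor Ern1 (-0.34) and the chaperone Hsp90b1 (-0.24, chromosome 10) were among the 3. The chaperone Hspa5 (0.12) and the stress factor Ddit3 (-0.049) did not pass.

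Of 29 targets of ATF4, the factor that answers amino acid shortage, 8 were higher and 4 lower. These shares were 27.6% and 13.8%, against 11.6% and 8.84% of all genes. The list median was -0.015, with 14 members above 0 and 15 below. The stress protein Nupr1 rose from 3.91 and 4.25 CPM to 12 and 10.2 CPM (log2 fold change 1.43, SE 0.21, adjusted p = 2.99e-05), and Gpt2, a mitochondrial alanine transaminase on chromosome 8, from 49.9 and 46.6 CPM to 95.7 and 85.6 CPM. Atf4 itself rose by 0.28 and Asns, asparagine synthetase, by 0.36. Ddit4, an inhibitor of mTORC1, fell from 41.6 and 43.9 CPM to 21 and 20.9 CPM (log2 fold change -1.03, SE 0.11, adjusted p = 2.63e-07), more than the median of its chromosome 10, and Sesn2, another mTORC1 inhibitor, fell by 0.60 on the log2 scale. Ddit4 is also on the list of hypoxia targets, of which 5 of 16 were lower and 2 higher (31.2% lower, against 8.84% of all genes). Of these 5, 4 are on chromosomes 10 or 12.

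Detoxifying genes went both ways. Of 33 genes tested from the NRF2 and glutathione list 4 were higher and 7 lower. The share higher, 12.1%, was near the 11.6% of all genes, and the share lower was 21.2% against 8.84%. Gstm1, a glutathione transferase with near copies, fell from 42.8 and 44.5 CPM to 15.4 and 16 CPM (log2 fold change -1.47, SE 0.11, adjusted p = 1.92e-09), and Gss, glutathione synthetase, fell by 0.75 on the log2 scale. Osgin1, an oxidative stress gene on chromosome 8, rose from 32.6 and 31.6 CPM to 77 and 80.6 CPM (log2 fold change 1.30, SE 0.091, adjusted p = 3.37e-10). Nqo1 (0.21) and Hmox1 (0.24), genes commonly read as NRF2 output, did not pass.

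Components of Wnt signalling, which zones liver metabolism and is often active in liver tumours, were split as 4 higher and 4 lower of 16 tested. That is 25% each way, against 11.6% higher and 8.84% lower of all genes. Besides Notum, the stem cell receptor Lgr5 fell from 36.7 and 37.1 CPM to 14.8 and 13.4 CPM (log2 fold change -1.39, SE 0.12, adjusted p = 1.47e-08), and the Wnt-induced factor Sp5 from 219.6 and 197 CPM to 118 and 130.3 CPM (log2 fold change -0.74, SE 0.069, adjusted p = 3.52e-08). Glul, glutamine synthetase, rose from 222 and 233 CPM to 349 and 367 CPM (log2 fold change 0.66, SE 0.057, adjusted p = 1.04e-08). Lgr5 lies on chromosome 10 and Glul on chromosome 1, both with changes beyond the median of their chromosome. Axin2, the feedback target used most often to read the pathway, stood at 548 and 523 CPM in WT and 557 and 566 CPM in KO clone 2 and did not pass. Wnt5a (0.63) and, from low counts, Lef1 (0.84) rose.

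Growth factor genes were split as 11 higher and 7 lower of 38. These shares were 28.9% and 18.4%, against 11.6% and 8.84% of all genes. The list median was -0.074, with 17 members above 0 and 21 below. Of the 11, 5 are on chromosomes 1 or 8, and of the 7, 4 are on chromosomes 10 or 18. On the insulin side, the receptor substrate Irs1 rose from 209 and 203 CPM to 342 and 383 CPM (log2 fold change 0.82, SE 0.061, adjusted p = 9.3e-10) and Irs2 by 0.55 on the log2 scale, beside the rise of Igf2. The receptors Fgfr4 (34.1 and 35.8 CPM to 61.3 and 55.1 CPM) and Fgfr1 (0.60) rose. The EGF receptor ligand Areg fell from 49.9 and 43.7 CPM to 26.6 and 20.0 CPM (log2 fold change -1.01, SE 0.12, adjusted p = 1.96e-06), with Hbegf (-0.39), the receptor Egfr (-0.22) and the ERK-induced genes Egr1 (-0.61), Dusp6 (-0.54), Dusp5 (-0.42) and Spry4 (-0.61). Other ERK-induced genes, Dusp4 (0.36), Etv5 (0.39) and Junb (0.20), were higher. Egr1, Hbegf and Spry4 are on chromosome 18 and Dusp6 is on chromosome 10.

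Of 22 tested targets of YAP and TGF-beta 6 were higher and 2 lower (27.3% and 9.09%, against 11.6% and 8.84% of all genes). The kinase receptor Axl rose from 332 and 352 CPM to 533 and 577 CPM (log2 fold change 0.70, SE 0.055, adjusted p = 1.92e-09) and Inhba, an activin subunit, from 7.37 and 5.28 CPM to 13.4 and 13.4 CPM. Id2, an inhibitor of differentiation on chromosome 12, fell by 0.63 on the log2 scale. Of 22 NF-kB and cytokine genes 5 were higher and 1 lower (22.7% and 4.55%). Birc3, an apoptosis inhibitor, stood at 32.3 and 33.1 CPM in WT and 55.4 and 59.5 CPM in KO clone 2. The chemokines Cxcl16 (0.73) and Ccl2 (0.54), Csf1 (0.46) and Icam1 (0.33) were also higher. Socs2 was lower (-0.87, chromosome 10).

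In the interferon and antigen presentation list 6 of 36 were higher and 2 lower (16.7% and 5.56%, against 11.6% and 8.84% of all genes). The peptide transporter Tap2 rose from 10.0 and 8.17 CPM to 22.7 and 19.1 CPM (log2 fold change 1.20, SE 0.16, adjusted p = 7.72e-06), and the immunoproteasome subunits Psmb8 (1.03) and Psmb9 (0.71), its neighbours in the MHC region of chromosome 17, rose too. Mx1, an antiviral gene, fell from low counts (36 and 28 in WT, 7 and 1 in KO clone 2), and Isg15 (-0.30) and Irf7 (-0.33) did not pass.

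The matrix and the cytoskeleton also changed in both directions. Of 41 matrix genes tested 10 were higher and 12 lower (24.4% and 29.3%, against 11.6% and 8.84% of all genes). The elastic fibre protein Fbn1 rose by 1.46 and Mmp10, a stromelysin, from 39.1 and 29.6 CPM to 68.4 and 53.7 CPM. Timp3, an inhibitor of metalloproteases on chromosome 10, fell from 20.6 and 19.1 CPM to 12.3 and 13.2 CPM and Dcn, on the same chromosome, from 944 and 893 CPM to 828 and 707 CPM. Of 40 actin and adhesion genes 11 were higher and 6 lower (27.5% and 15%). Most of the 11 rose by under 0.35 on the log2 scale. Of the 6, the laminin receptor subunit Itgb4 (-0.72) changed most.

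Genes of DNA replication and mitosis were split as 10 higher and 5 lower of 51. These shares were 19.6% and 9.80%, against 11.6% and 8.84% of all genes. Of the 10, 5 are on chromosomes 1 or 8, and of the 5 lower 4 are on chromosomes 10 or 12. The licensing factor Cdt1 rose by 0.50 (chromosome 8) and the kinase Cdk2 fell (-0.50, chromosome 10). Proliferation markers moved little, with Mki67 at 0.29 and called, and Pcna (-0.13) and Top2a (0.015) not called. Of 65 replication-dependent histone genes 9 were higher and 0 lower, a share of 13.8% higher against 11.6% of all genes. The linker histone Hist1h1a rose from 14.8 and 12.7 CPM to 30.5 and 37.3 CPM (log2 fold change 1.31, SE 0.14, adjusted p = 1.88e-07), and the other 8 are core histones of the Hist2 cluster on chromosome 3, near-identical copies with log2 fold changes from 0.20 to 0.48 that share reads. Histone mRNAs of this kind lack a poly(A) tail, and they summed to 43140.5 and 41317 CPM in WT. In KO clone 2 the sums were 40908 and 47618 CPM, below and above both WT libraries, so the groups overlapped.

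**Figure D4:**
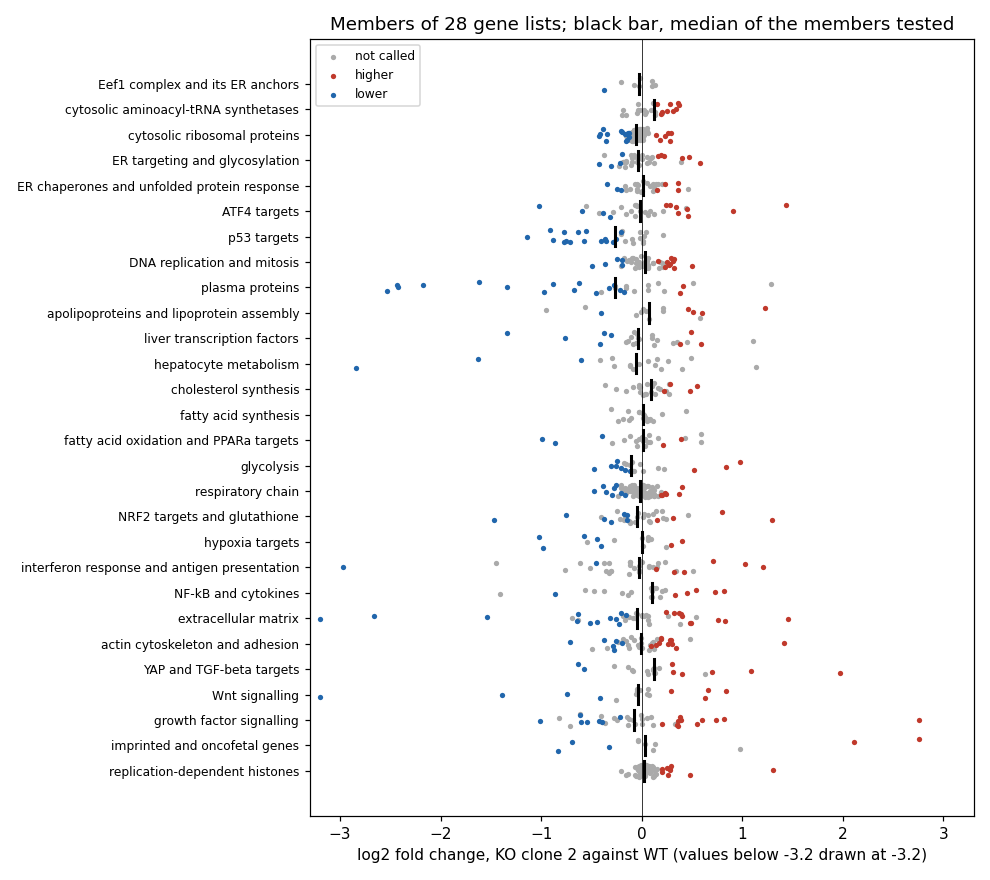
Log2 fold change of KO clone 2 against WT (horizontal axis) for the tested members of 28 gene lists (vertical axis), with 1 point per gene, red for genes called higher and blue for genes called lower; the black bar is the median of the list. The bars of the p53 targets (-0.27) and the plasma proteins (-0.27) lie farthest from 0.

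Around the edited gene itself, 55 genes within 1 Mb of Eef1d were tested, with a median log2 fold change of 0.066. Of these 9 were higher and 4 lower, beside 84 higher and 27 lower of the 461 tested on chromosome 15 as a whole. The cytolinker Eppk1 rose (1.20, SE 0.13), as did Mroh1 (0.59) and the polarity gene Scrib (0.25). Ly6c1, a GPI-anchored surface protein in a family of close copies, fell (-1.64, SE 0.23). Naprt, an NAD synthesis gene whose annotated start overlaps the end of Eef1d on the same strand, rose from a low level (1.20, adjusted p = 0.027), and reads of the overlap cannot be assigned to either gene.

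The other KO clones allow a comparison of KO clone 2 with cells that carry a deletion of the same exon. Against the mean of clones 1 and 3, in a fit of all 8 RNA-seq libraries, 5638 of 11755 genes (48%) were called, 3120 higher and 2518 lower. Each clone also differed from the same 2 WT libraries, so the 3 comparisons against WT share their controls and their values are given side by side. At the same threshold 46.7% of genes were called in clone 1 and 45.4% in clone 3, against 20.4% in clone 2.

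The genes that fell most in KO clone 2 had varied levels in the other clones. Rhox5 stood at 0.346 and 0.282 CPM in clone 1 and at 0.317 and 0.0819 CPM in clone 3, far below WT. Tff2 (11.1 and 12.9 CPM in clone 1, 1.59 and 2.21 CPM in clone 3) was also below WT in both, and so was Gstm7 (1.65 and 1.31 CPM in clone 1, 1.67 and 1.06 CPM in clone 3). Trim71 was not low in the other clones, at 21.1 and 16.4 CPM in clone 1 and 13.5 and 20.0 CPM in clone 3 (log2 difference of clone 2 from the other clones -5.06, SE 0.29, adjusted p = 5.23e-17). Lbp (50.7 and 52.7 CPM in clone 1, 67.4 and 65 CPM in clone 3) was above WT in both, and clone 2 was lower (-3.72, SE 0.13, adjusted p = 2.29e-23). Tnfrsf11b was near 0 in clone 1 (0.0866 and 0.375 CPM) and above WT in clone 3 (78 and 86.3 CPM). Notum was above WT in clone 1 (14 and 16.2 CPM) and near 0 in clone 3 (0.238 and 0.0819 CPM).

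The largest rises varied as well. B3gnt3 stood at 0.260 and 0.563 CPM in clone 1 and 0.317 and 0.491 CPM in clone 3, below WT and far below clone 2 (log2 difference 5.65, SE 0.24, adjusted p = 9.04e-21). Igf2 stood at 0.433 and 0.751 CPM in clone 1 and 1.59 and 0.491 CPM in clone 3. Ltb was above WT in clone 1 (16.6 and 9.38 CPM) and below it in clone 3 (0.635 and 1.47 CPM), and so was Dpysl3 (24.5 and 22.3 CPM in clone 1, 0.317 and 0.410 CPM in clone 3). Tenm3 stood at 0.260 and 0 CPM in clone 1 and 0.0793 and 0 CPM in clone 3, against 5.24 and 4.23 CPM in clone 2 (log2 difference 5.78, SE 0.57, adjusted p = 8.86e-11).

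The p53 targets were lower in KO clone 2 than in the other clones too, with 15 of 28 called lower and 0 higher against clones 1 and 3 (21.4% of all genes were called lower in that comparison, which shares the clone 2 libraries with the one above). Against WT, 9 members were lower and 8 higher in clone 1 (24.6% and 22.1% of all genes). In clone 3 it was 10 lower and 3 higher (22.3% and 23.1%). Cdkn1a stood at 68.2 and 64.5 CPM in clone 1 and at 95.4 and 94.9 CPM in clone 3, above the 46 and 53.2 CPM of clone 2 (-0.68, SE 0.074, adjusted p = 1.17e-09). Mdm2 stood at 268 and 258 CPM in clone 1 and 232 and 239 CPM in clone 3, again above both libraries of clone 2.

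The plasma proteins were split. Against clones 1 and 3, 8 of 29 were higher in KO clone 2 and 11 lower (26.5% and 21.4% of all genes). Albumin (Alb) was 262 and 274 CPM in clone 1 and 1759 and 1882 CPM in clone 3, one below and one above both WT and clone 2. Fgb stood at 17.8 and 18.8 CPM in clone 1 and 31 and 27.7 CPM in clone 3, below WT and above clone 2 (log2 difference -1.38, SE 0.13, adjusted p = 1.59e-11). Hnf4a was 30.9 and 23.5 CPM in clone 1, well below the other lines.

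**Figure D5:**
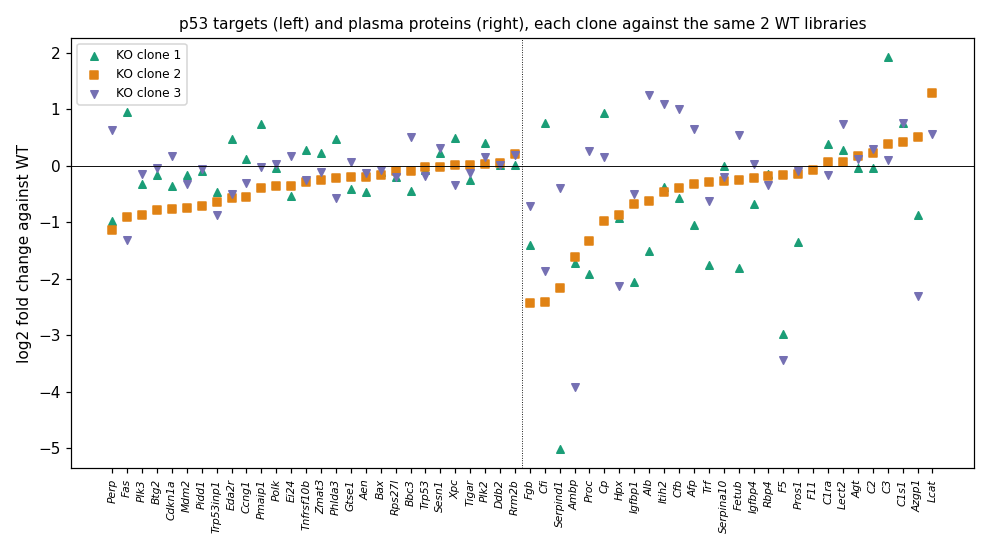
Log2 fold change against the same 2 WT libraries (vertical axis) of the 28 p53 targets and the tested plasma proteins but 1 (horizontal axis), with clone 1 as upward triangles, clone 2 as squares and clone 3 as downward triangles. The squares of the p53 targets run from -1.14 (Perp) to 0.22 (Rrm2b), and the triangles scatter on both sides of 0.

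The chromosome-wide shifts differed between the clones as well. Chromosome 1, at 0.28 in clone 2, had medians of 0.071 in clone 1 and -0.10 in clone 3. Chromosome 10, at -0.26 in clone 2, was at 0.075 and 0.084. Chromosome 8 was raised in clone 3 too (0.22) but not in clone 1 (-0.026). Clone 1 had its own shifts, with the lowest median on chromosome 7 (-0.44), and clone 3 had its lowest on chromosome 6 (-0.33) and its highest on chromosome 12 (0.32).

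Ribosome footprints were sequenced as separate libraries from the same lysates, so they are not independent samples, and their values are given beside those of RNA. Of 10370 genes tested in footprints 1216 (11.7%) were called. Footprint log2 fold changes were -8.07 for Rhox5, -6.88 for Tm4sf1, -2.78 for Fgb and 3.04 for B3gnt3. Among p53 targets 7 of 28 were lower and 1 was higher in footprints (4.99% and 6.74% of all genes), with a list median of -0.26. Cdkn1a fell in footprints by 0.76 on the log2 scale (SE 0.088, adjusted p = 2.85e-07). Among plasma proteins 12 of 25 were lower and 1 higher. The chromosome medians in footprints were 0.28 for chromosome 1, 0.27 for chromosome 8 and -0.26 for chromosome 10. The calls of the 79 cytosolic ribosomal proteins leaned the other way in footprints, with 14 higher and 3 lower (median 0.053). In RNA 6 were higher and 14 lower (median -0.052). Among them Rps12, of the small subunit, was at -0.34 in RNA and at 0.32 in footprints (adjusted p = 0.0124 in footprints).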

How the data were processed

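RNA-seq and Ribo-seq libraries of Hepa1-6 WT cells and 3 exon 5 KO clones (2 replicates each) were used as the authors deposited them, as raw read counts per transcript. According to the study's methods and processing notes, reads were trimmed with fastp 0.21.0 and aligned with STAR 2.7.0a to mm10, and reads were assigned by A-site position with 5 codons left out at each end of the coding sequence. The labels give the molecule as polyA RNA, while the protocol gives rRNA depletion.

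Each gene was represented by the transcript with the largest sum over the 16 count columns. The RNA counts of KO clone 2 and WT were tested in 1 fit of 4 libraries with edgeR 4.0.16 (TMM, filterByExpr, quasi-likelihood test, Benjamini-Hochberg adjusted p under 0.05) in R 4.3.3. The script was tested on simulated data. CPM values use TMM factors over the 8 RNA-seq libraries, whereas fold changes come from the 4-library fit. Replicates of a line differed beyond sampling noise (chi-square per degree of freedom 2.38 in WT and 4.04 in KO clone 2). Alternatives were DESeq2 1.42.0, other filters and normalization, leaving out each replicate and a replicate block.

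Genes were named by rule: the Eef1 complex, the 12 largest rises and falls with at least 50 counts in every library of the higher group and groups that did not overlap, up to 4 members per list, the 4 largest CPM differences and smallest p in each direction, and the 6 largest differences from clones 1 and 3. Some genes that the rule names are not reported here. Other members of lists were named after their values were seen. The members and lists were chosen with earlier results of these data known. Promoters were read from RefSeq windows (GRCm38.p6), and coordinates are GRCm38.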

Additional observations from a re-analysis of the deposited data

Results flagged for a closer look

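Several results differed between the clones. Against the mean of clones 1 and 3, KO clone 2 differed in 5638 genes by edgeR's quasi-likelihood test. Among the genes with the largest log2 differences that were also called against WT were B3gnt3 (5.65), Tenm3 (5.78), Shfl (5.58) and Arhgdib (7.24). Tenm3 had 3 and 0 counts in clone 1 and 1 and 0 in clone 3. Shfl had 1 and 0 counts in clone 1, so the sizes of both genes rest on few counts in these clones. Arhgdib had no counts in clone 1, so that its fitted value is no bound. Against a floor of 3 counts over the group, KO clone 2 was at least 41.8-fold higher than clone 1 in this gene.

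Chromosome medians of the log2 fold change against WT had opposite signs in other clones, and this difference was not tested. Chromosome 1 was at -0.10 in clone 3, against 0.28 in KO clone 2. Chromosome 8 was at -0.026 in clone 1, against 0.26. Chromosome 10 was at 0.075 in clone 1 and 0.084 in clone 3, against -0.26. Chromosomes 12 and 18 were at 0.32 and 0.32 in clone 3, against -0.21 and -0.12.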

How the results depend on the processing

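The count of 2346 genes called between KO clone 2 and WT (1331 higher, 1015 lower) became 1231 (732 and 499) with DESeq2, 1430 (838 and 592) at an adjusted p under 0.01, and 1140 (637 and 503) with the genes of chromosomes 1, 8, 10, 12 and 18 left out, an alternative chosen after seeing the data. Leaving out 1 replicate gave 1390 to 2521 genes (832 to 1408 higher, 550 to 1113 lower), with the lowest counts without a WT replicate. The p53 targets called lower numbered 9 with DESeq2, 10 at an adjusted p under 0.01 and 10 to 15 with 1 replicate left out. The chromosome 8 median was 0.25 with DESeq2, and with 1 replicate left out the medians were 0.25 to 0.30 for chromosome 1, -0.27 to -0.25 for chromosome 10 and -0.14 to -0.12 for chromosome 18. Eef1d was at -0.28 with the transcript of the largest sum over the 4 libraries. Whether that transcript holds the deleted exon was not tested. Rrbp1, not called, was at -0.090 to 0.062 with 1 replicate left out, above 0 without WT replicate 1 (0.062) and without KO2 replicate 1 (0.018). The cause of these moves was not tested. With a replicate block 2907 genes were called (1595 higher, 1312 lower). The labels give no shared batch for a replicate number, and the replicate differences of WT and KO clone 2 correlated at r = 0.112 over 8726 genes, which are not independent. DESeq2 did not call 21 of the named genes that edgeR called, among them Eif2ak3, Fas, Mttp, Foxa1, Nr5a2, Mvd, Acot2, Psmb9 and Actb. With 2 replicates per line, small changes in genes of low counts were not detectable.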
